A study of Rattus norvegicus with 6 samples.

Results

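The neuronal cytoskeleton was examined here through 10 genes, taken by symbol from the 17066 genes of the deposited expression table: the neurofilament subunits Nefl, Nefm, Nefh and Ina, the neuronal beta-tubulin Tubb3, the microtubule-associated proteins (MAPs) Map2, Map1b and Mapt, and the stathmins Stmn1 and Stmn2. All 10 symbols were listed once, and all 10 passed the filter on low values. RNA-seq was performed on primary hippocampal neurons, prepared at embryonic day 18 from Sprague-Dawley rats and grown in culture. On day 5 or 6 in vitro (DIV) the cultures were infected with lentivirus that carried EGFP alone (EGFP, the control), CCNY-WT-EGFP for overexpression of Cyclin Y (CCNY-WT), or CCNY-shRNA-EGFP for its knockdown (CCNY-shRNA), and RNA was taken at DIV 14. All 3 conditions thus carry a lentivirus, made from the vector FUGW, and EGFP, and uninfected neurons were not analysed here. Each condition has 2 libraries, named replicates 1 and 2, and nothing in the labels says whether these came from separate cultures, so that the p-values measure the spread between these libraries, which may be technical. The comparisons ask whether raising or lowering Cyclin Y, a cyclin found in non-dividing neurons, moves the transcripts of the neuronal cytoskeleton.

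The shape of a neuron rests on microtubules and neurofilaments. Microtubules are polymers of alpha- and beta-tubulin, they carry transport along axons and dendrites, and MAPs bind along them: MAP2 is found mainly in dendrites and cell bodies, tau (Mapt) mainly in axons, and MAP1B in growing axons. Neurofilaments are the intermediate filaments of axons, copolymers of light, medium and heavy subunits with alpha-internexin (Ina), and stathmins bind free tubulin dimers and favour the shrinkage of microtubules. Class III beta-tubulin (Tubb3) and Map2 are common markers of neurons in culture.

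Levels are given in FPKM (sequenced fragments per unit of transcript length and of library size), which can be compared between genes because they are per length. For the targeted gene Ccny the values were 43.1 and 42.3 with EGFP, 108 and 109 after overexpression, and 5.98 and 6.19 after knockdown, so the libraries of the conditions did not overlap. The table holds no read counts. From the steps between the values of weakly expressed genes, the libraries were estimated to have 0.818 to 1.33 times the depth of EGFP replicate 1. The FPKM summed to between 543567 and 645435 per library, where the highest sum, in CCNY-WT replicate 1, rests on the gene Bc1, and the 10 cytoskeleton genes made up 0.790% to 0.824% of it once Bc1 was left out. Among the marker lists, the summed FPKM of 9 neuron markers lay between 4711 and 4943 in all libraries, and 1 of them, Gad2 of GABAergic neurons, was lower in CCNY-shRNA than in EGFP (log2 difference -0.41, limma adjusted p = 0.0226). The 7 astrocyte markers with a row summed to 375 and 390 with EGFP, 400.1 and 391 with CCNY-WT and 309 and 379 with CCNY-shRNA, so CCNY-shRNA replicate 1 was the lowest. The astrocyte glutamate transporter Slc1a2 was lower in both knockdown libraries (65.2 and 68.6) than in EGFP (83.7 and 82.9), with a log2 difference of -0.32 (limma adjusted p = 0.0768), and Slc1a3 by -0.24 (limma adjusted p = 0.183). Of the 7 astrocyte markers, 5 were lower and 2 higher on average in CCNY-shRNA than in EGFP. The summed lists of the oligodendrocyte lineage (40.3 and 37.2 in CCNY-shRNA, 41.9 to 47.6 in the other 4 libraries), vascular and meningeal cells (14.1 to 18.3), dividing cells (2.95 to 4.14) and microglia (0.0476 to 0.389) were low, with Aif1 and Cx3cr1, Cldn5 and Sox10 listed at 0 in every library. The part of these cells in the results was not tested, and in bulk RNA fewer cells of a type and less RNA per cell cannot be told apart.

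The main pattern was one of near-constant levels. None of the 10 genes differed between any of the 3 pairs of conditions past an adjusted p of 0.05 (limma, Benjamini-Hochberg over 10188 genes tested). Of all genes tested, 76, or 0.746%, passed in CCNY-shRNA against EGFP, 0.00982% in CCNY-WT against EGFP and 0.216% in CCNY-shRNA against CCNY-WT. With shares this small, 0 calls among 10 genes do not set them apart from the rest. At an unadjusted p under 0.05, 1 of the 10 genes passed in each comparison, against 18.6%, 6.83% and 12.2% of all genes tested. Without CCNY-shRNA replicate 1, 5 of the 10 passed the unadjusted threshold in CCNY-shRNA against EGFP, against 20.3% of all genes, and again 0 the adjusted threshold. Over the 6 libraries, the highest FPKM of a gene was 1.05 times (Nefl) to 1.23 times (Map1b) the lowest. The 30 fitted differences ran from -0.18 to 0.20 on the log2 scale, that is from 11.9% lower to 15.0% higher, and their 95% confidence intervals reached from -0.36 to 0.34, or from 21.9% lower to 26.3% higher. Applying the study's own threshold without a test, 0 of the 10 genes differed by at least 0.33 in mean log2 FPKM in CCNY-shRNA or by at least 0.3 in CCNY-WT, where 13.1% and 8.35% of the genes tested did. The smallest test statistic among the 76 genes called in CCNY-shRNA was 5.96. At the standard errors of the 10 genes it stands for a fitted log2 difference of 0.33 (Mapt) to 0.69 (Nefh). This limit is about the smallest fitted difference that would have been called. It applies to fitted values, and a true difference of that size or somewhat larger could still be missed. In CCNY-shRNA against CCNY-WT the same limit was 0.40 to 0.85. In CCNY-WT against EGFP, Ccny was the only gene called. Its own test statistic was 20.5, well above what was needed to pass, so no such limit is given. The absence of calls says less there, since fewer calls make the adjustment stricter.

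**Figure D1:**
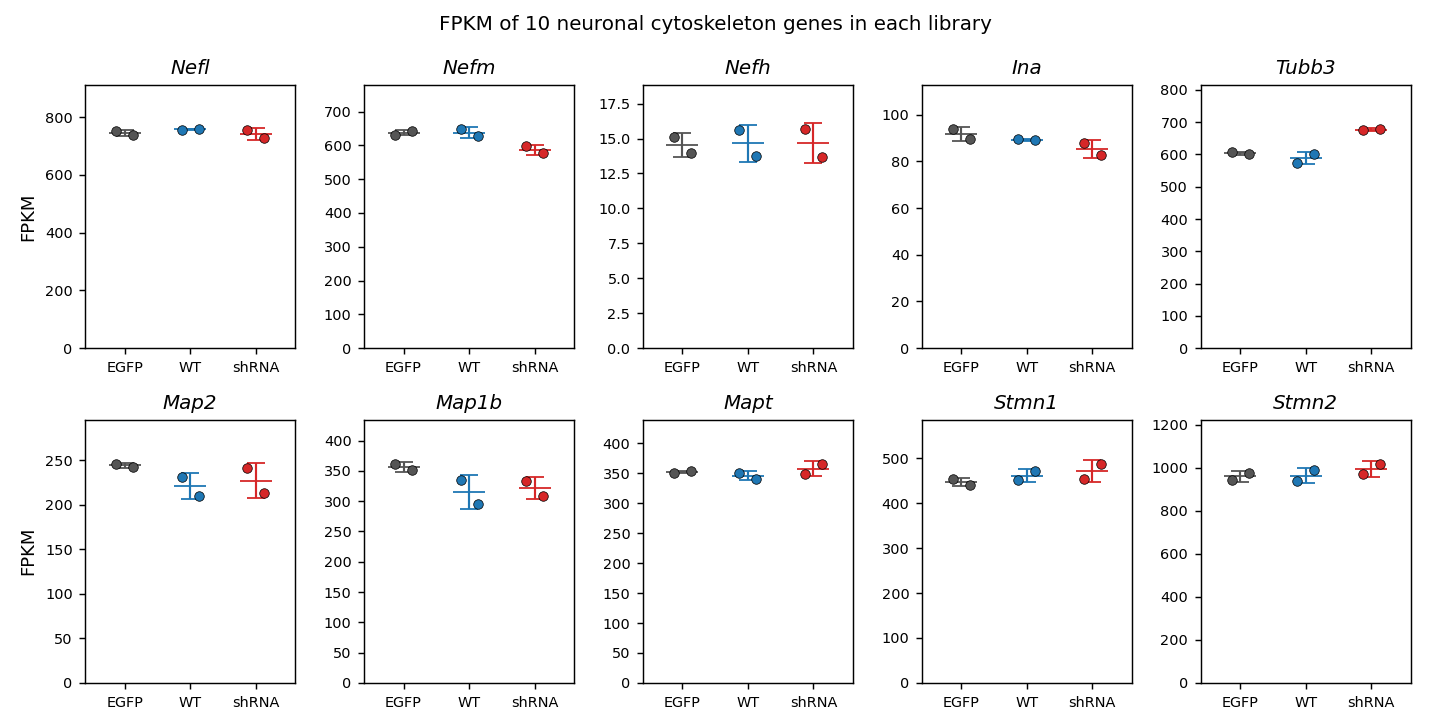
FPKM (linear axes from 0, 1 scale per panel) of the 10 genes in the EGFP, CCNY-WT (WT) and CCNY-shRNA (shRNA) libraries. Points are the libraries, replicate 1 at the left and replicate 2 at the right, long ticks the mean and bars 1 SD (n = 2); the widest gap between conditions is that of Tubb3, with 674 and 680 in CCNY-shRNA against 575 to 608 in the other 4 libraries.

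In the control neurons the genes spanned a wide range of levels. Stmn2 was the highest, at rank 49 of all 17066 genes by its mean in EGFP, followed by Nefl (rank 82), Nefm (104), Tubb3 (110), Stmn1 (183), Map1b (253), Mapt (261), Map2 (412), Ina (1228) and Nefh (5540). Thus 9 of the 10 lay in the top 10% of the table, and Nefh alone lay well below. The table includes genes without expression (4848 and 4720 at 0 in the EGFP libraries), so these ranks are not among expressed genes alone. In EGFP, Map1b (357 ± 7.90, SD, n = 2) and Mapt (352 ± 2.18) did not differ beyond their spread, while every other pair of neighbours in this order had library values that did not overlap. The order in CCNY-WT was the same except that Mapt lay above Map1b. In CCNY-shRNA, Tubb3 also lay above Nefm. The spread between replicates was small: the median residual SD of the 10 genes on the log2 scale was 0.0474, against 0.0800 for the 6572 genes with a mean FPKM of at least 10, and it ran from 0.0266 (Nefl) to 0.120 (Nefh). These sets were not matched for level. All of the 10 genes but Nefh lay far above an FPKM of 10, and Nefh, the lowest, had the widest spread. The comparison thus does not set the cytoskeleton genes apart.

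None of the 4 neurofilament subunits passed the test in any comparison, and the widest gap to the controls was that of Nefm in CCNY-shRNA. Nefl, the light subunit on which the filament assembles, had an FPKM of 753 and 739 with EGFP, 756 and 760.1 with CCNY-WT and 757 and 727 with CCNY-shRNA. Its values overlapped between EGFP and CCNY-shRNA, and the log2 difference of -0.01 had a 95% confidence interval from -0.15 to 0.13 (limma adjusted p = 0.956). In CCNY-WT it was 0.02 (interval -0.12 to 0.16, limma adjusted p = 0.966), although both libraries lay just above both controls. Nefm, the medium subunit, had 632 and 642 with EGFP, 649 and 627 with CCNY-WT and 597 and 576 with CCNY-shRNA. Both knockdown libraries were lower than the other 4. The difference from EGFP was -0.12 (standard error 0.0587, interval -0.26 to 0.02, limma adjusted p = 0.323) and that from CCNY-WT -0.12 (interval -0.26 to 0.01, limma adjusted p = 0.466).

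Nefh, the heavy subunit with the long phosphorylated tail, is known to accumulate late in maturing axons. It was scarce in these cultures, with 15.1 and 14.0 with EGFP, 15.6 and 13.7 with CCNY-WT and 15.7 and 13.7 with CCNY-shRNA. In each condition replicate 2 was the lower library, and the 3 conditions overlapped fully, with log2 differences of 0.01 in both conditions relative to EGFP (limma adjusted p = 0.974 in CCNY-shRNA and 0.993 in CCNY-WT). Nefh also had the widest interval of the 10 genes, from -0.26 to 0.28 in each comparison with EGFP. Ina, alpha-internexin, is the intermediate filament that neurons make before the neurofilament triplet. Its FPKM was 93.9 and 89.6 with EGFP, 89.5 and 89.0 with CCNY-WT and 88.0 and 82.5 with CCNY-shRNA. The libraries of CCNY-shRNA lay below those of CCNY-WT, and these below those of EGFP, but by little: -0.11 in CCNY-shRNA (interval -0.24 to 0.03, limma adjusted p = 0.366) and -0.04 in CCNY-WT (interval -0.17 to 0.09, limma adjusted p = 0.923).

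As shares of the summed FPKM of the 4 subunits, Nefl made up 49.8% to 51.9% per library, Nefm 41.0% to 43.2% (41.0% and 41.2% in CCNY-shRNA, the lowest libraries), Ina 5.90% to 6.29% and Nefh 0.921% to 1.08%. In EGFP the mean FPKM of Nefl was 51.3 times that of Nefh. The subunits summed to 1494 and 1485 with EGFP, 1511 and 1489 with CCNY-WT and 1458 and 1399 with CCNY-shRNA. The log2 ratio of Nefm to Nefl was -0.25 and -0.20 with EGFP, -0.22 and -0.28 with CCNY-WT and -0.34 and -0.33 with CCNY-shRNA, so the knockdown libraries had the lowest ratios, and they also had the lowest sums. For a single ratio, 2 libraries against 2 cannot give a two-sided exact permutation p below 0.333, and no test of the ratios is given.

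**Figure D2:**
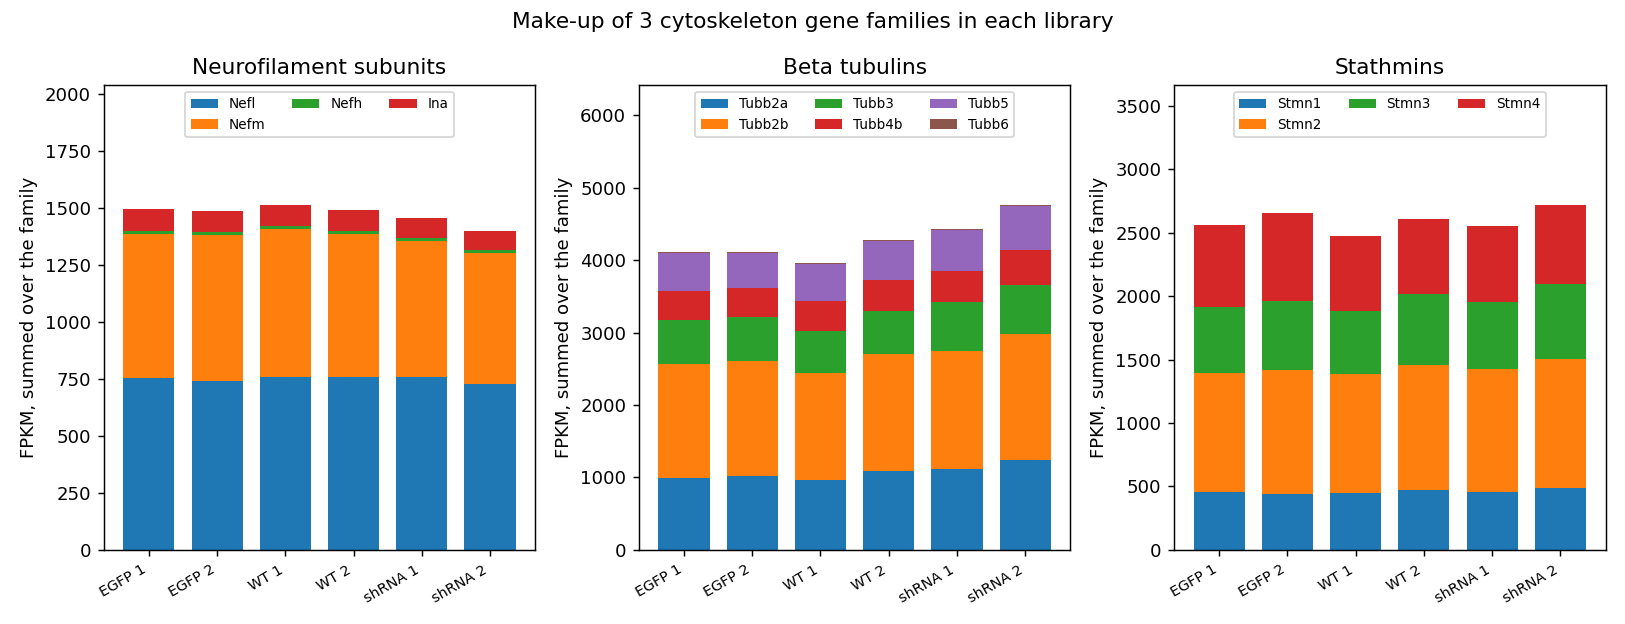
Stacked FPKM (linear axis from 0) of the 4 neurofilament subunits, of 6 beta-tubulins and of the 4 stathmins in each of the 6 libraries, 1 bar per library and no error bars. The neurofilament bars of CCNY-shRNA are the lowest of their panel, and the beta-tubulin bars of CCNY-shRNA are the tallest of their panel.

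Of the 10 genes, Tubb3 differed most from the controls in the knockdown. Its FPKM was 608 and 601 with EGFP, 575 and 603 with CCNY-WT and 674 and 680 with CCNY-shRNA (677 ± 3.60, SD, n = 2). Both knockdown libraries were above the other 4, while CCNY-WT overlapped EGFP. In CCNY-shRNA it was 1.12 times as high as in EGFP, a log2 difference of 0.16 (standard error 0.0583, interval 0.03 to 0.30) that had an unadjusted p of 0.0233 by limma and did not pass after adjustment (limma adjusted p = 0.193). Relative to CCNY-WT it was higher by 0.20 (interval 0.07 to 0.34, unadjusted p = 0.00882 and adjusted p = 0.260, limma). In CCNY-WT the difference from EGFP was -0.04 (interval -0.17 to 0.10, limma adjusted p = 0.923).

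Map1b had the lowest unadjusted p in CCNY-WT. It encodes a MAP of outgrowing axons. Its FPKM was 362 and 351 with EGFP, 335 and 295 with CCNY-WT and 334 and 308 with CCNY-shRNA. All 4 libraries with altered Cyclin Y lay below both controls, and replicate 2 was the lower library in each condition. The log2 difference was -0.18 in CCNY-WT (standard error 0.0753, interval -0.36 to -0.01, unadjusted p = 0.0425 and adjusted p = 0.729, limma) and -0.15 in CCNY-shRNA (interval -0.33 to 0.02, unadjusted p = 0.0800 and adjusted p = 0.327, limma). The 2 comparisons share their control libraries, so the position of both below EGFP is not independent.

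RefSeq promoter windows (build GRCr8, later than the rn4 build of the data) were matched for 5 of the 10 genes: Map2, Map1b, Ina, Tubb3 and Stmn1. The 250 bases before the annotated start are shown for Tubb3 (chr19:68365437-68365686, plus strand) and Map1b (chr2:32644472-32644721, minus strand), the genes with the smallest unadjusted p among the 10, chosen after their values were seen. Both are read 5′ to 3′ towards the gene, and capitals mark a TATA box (TATAAA), the CCAAT box or a GC box (GGGCGG) on either strand.
Tubb3: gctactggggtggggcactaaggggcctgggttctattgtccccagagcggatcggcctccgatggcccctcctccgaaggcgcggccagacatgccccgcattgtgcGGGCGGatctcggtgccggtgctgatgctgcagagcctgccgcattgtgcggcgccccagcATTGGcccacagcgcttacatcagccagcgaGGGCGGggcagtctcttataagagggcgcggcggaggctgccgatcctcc
Map1b: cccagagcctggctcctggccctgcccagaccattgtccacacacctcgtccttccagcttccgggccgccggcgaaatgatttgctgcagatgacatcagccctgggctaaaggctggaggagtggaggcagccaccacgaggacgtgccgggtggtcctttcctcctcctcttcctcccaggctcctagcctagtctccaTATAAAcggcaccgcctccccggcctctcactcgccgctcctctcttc
The Tubb3 window holds 2 GC boxes and 1 CCAAT box and no TATA box of these letters, and 68.0% of its bases are G or C. The Map1b window holds 1 TATA box and neither of the others, and its G and C content is 63.6%. Among 33469 rat windows of this length, 12.9% hold this TATA box, 34.0% the CCAAT box and 30.5% this GC box, and the median G and C content is 51.2%. These matches describe the sequence alone.

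Map2 and Mapt mark the dendritic and the axonal compartment, and neither differed past the threshold. The FPKM of Map2 was 246 and 242 with EGFP, 232 and 210.4 with CCNY-WT and 241 and 213 with CCNY-shRNA. All libraries with altered Cyclin Y were below both controls, by a narrow margin for CCNY-shRNA replicate 1. The log2 difference was -0.15 in CCNY-WT (interval -0.32 to 0.03, limma adjusted p = 0.761) and -0.11 in CCNY-shRNA (interval -0.28 to 0.07, limma adjusted p = 0.481). In CCNY-shRNA it was -0.20 without replicate 1 and -0.02 without replicate 2 of that condition, and in CCNY-WT -0.22 and -0.08 without replicate 1 and 2 of its own. Mapt was the most precisely measured of the MAPs, with 351 and 354 with EGFP, 351 and 341 with CCNY-WT and 349 and 366 with CCNY-shRNA. Its libraries overlapped in every comparison, with differences of -0.03 in CCNY-WT (interval -0.15 to 0.10, limma adjusted p = 0.952) and 0.02 in CCNY-shRNA (interval -0.10 to 0.15, limma adjusted p = 0.875).

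The log2 ratio of Map2 to Mapt within a library was -0.51 and -0.54 with EGFP, -0.60 and -0.70 with CCNY-WT and -0.53 and -0.78 with CCNY-shRNA. CCNY-shRNA replicate 1 lay between the controls, and replicate 2 was the lowest of all. The log2 ratio of Map1b to Map2 was steadier, at 0.47 to 0.56 over the 6 libraries, since both genes were low in the same libraries.

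The stathmins are proteins that bind tubulin dimers, and Stmn2 (SCG10) is a neuronal member enriched in growth cones. The FPKM of Stmn1 was 454 and 440.4 with EGFP, 451 and 471 with CCNY-WT and 454 and 489 with CCNY-shRNA. The knockdown libraries lay above the controls, replicate 1 only just, with a log2 difference of 0.08 (interval -0.07 to 0.22, limma adjusted p = 0.558). In CCNY-WT it was 0.05 (interval -0.10 to 0.19, limma adjusted p = 0.917). Stmn2 had 941 and 977 with EGFP, 938 and 987 with CCNY-WT and 969 and 1019 with CCNY-shRNA, which overlapped in all comparisons. Its differences were 0.05 in CCNY-shRNA (interval -0.11 to 0.21, limma adjusted p = 0.740) and 0.00 in CCNY-WT (interval -0.15 to 0.16, limma adjusted p = 0.993). Stmn2 was 2.07 to 2.22 times as high as Stmn1 in each library.

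**Figure D3:**
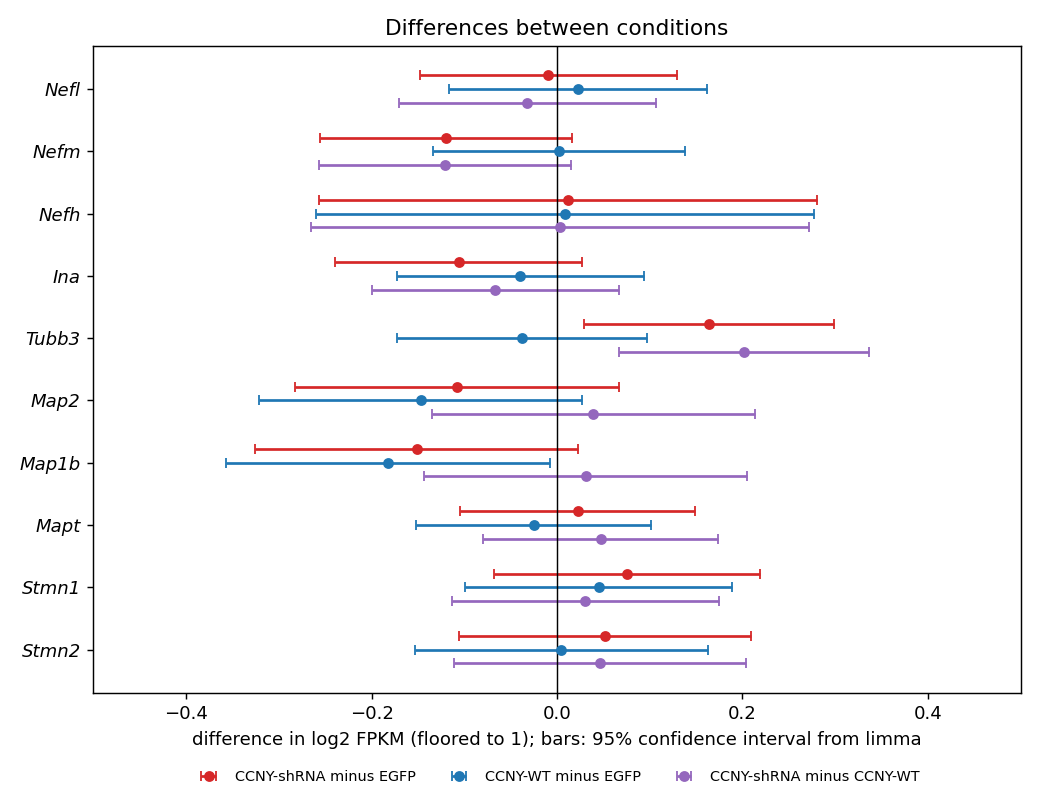
Fitted differences in log2 FPKM (floored to 1) of the 10 genes in the 3 comparisons, with 95% confidence intervals from limma on 2 libraries per condition. Of the 30 intervals 3 leave out 0: Tubb3 in CCNY-shRNA relative to EGFP and to CCNY-WT, and Map1b in CCNY-WT relative to EGFP.

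Between CCNY-shRNA and CCNY-WT directly, the 8 genes other than Tubb3 and Nefm differed by between -0.07 (Ina) and 0.05 (Mapt and Stmn2), with adjusted p-values of 0.710 or more by limma. Counting separation instead of fitted changes, 6 of the 10 genes had no overlap between CCNY-shRNA and EGFP libraries, where 48.4% of all genes tested had none. Of these 6, Tubb3 and Stmn1 were higher (23.9% of all genes were) and Map2, Map1b, Nefm and Ina lower (24.5%). In CCNY-WT against EGFP there were 4 of 10, against 39.5% of all genes, with Nefl higher (20.3%) and Map2, Map1b and Ina lower (19.2%). In CCNY-shRNA against CCNY-WT there were 3 of 10, against 42.2%, with Tubb3 higher (20.3%) and Nefm and Ina lower (21.9%). The median log2 difference of the 10 genes was 0.00 in CCNY-shRNA and -0.01 in CCNY-WT, beside 0 and 0.00 over all genes tested.

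The genes around these 10 were described through 10 lists of related cytoskeleton genes, with 124 genes in all, of which 110 had a row and 103 could be tested. In limma's test 0 passed the adjusted threshold in any of the 3 comparisons. At an unadjusted p under 0.05, 16 were higher and 6 lower in CCNY-shRNA than in EGFP, 4 higher and 1 lower in CCNY-WT than in EGFP, and 5 higher and 5 lower in CCNY-shRNA than in CCNY-WT. Of all genes tested, 9.20% were higher and 9.36% lower at this threshold in the first of these comparisons, 3.83% and 3.00% in the second, and 5.05% and 7.12% in the third. The median log2 difference of the 103 genes was 0.03 in CCNY-shRNA and 0.02 in CCNY-WT.

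The tubulins resembled Tubb3 in their direction. Of 12 other tubulins tested, 10 had a positive difference from EGFP in CCNY-shRNA, as had 5112 of all 10188 genes tested. Tuba1c and Tube1, both lower, and Tubd1, higher, were near the floor, with mean FPKM of 1.53, 0.886 and 1.81. The median log2 difference of the 12 was 0.18 beside 0 over all genes, and 0 passed the adjusted threshold. By limma 4 were higher at an unadjusted p under 0.05, against 9.20% of all genes. With quantile normalization 9 of the 12 were higher, and their median was 0.14. Slc1a2, Slc1a3 and the oligodendrocyte sum given above were below EGFP in the same libraries, while 2 of the 7 astrocyte markers were higher on average. The part of these cells in the tubulin values was not tested. The FPKM of Tubb2a, a major beta-tubulin of neurons, was 989 and 1025 with EGFP, 969 and 1093 with CCNY-WT and 1119 and 1244 with CCNY-shRNA (log2 difference in CCNY-shRNA 0.23, limma adjusted p = 0.214). Tubb5 had 525 and 493 with EGFP, 517 and 531 with CCNY-WT and 564 and 601 with CCNY-shRNA (0.19, limma adjusted p = 0.170). Tubb4b had 400.1 and 401 in EGFP against 435 and 488 in CCNY-shRNA (0.20, limma adjusted p = 0.175), and Tuba4a 151 and 146 against 163 and 174 (0.18, limma adjusted p = 0.152). These 4 had the unadjusted p-values under 0.05 and were named for that after their values were seen. Tuba1a, the highest tubulin, had 1985 and 1974 with EGFP, 1959 and 1935 with CCNY-WT and 1966 and 2108 with CCNY-shRNA, and Tubb2b had 1582 and 1581 with EGFP, 1476 and 1605 with CCNY-WT and 1627 and 1730 with CCNY-shRNA (limma adjusted p = 0.833 and 0.615 in CCNY-shRNA).

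The 6 beta-tubulins together summed to 4110.2 and 4111 with EGFP, 3960 and 4273 with CCNY-WT and 4428 and 4753 with CCNY-shRNA. The share of Tubb3 in that sum was 14.8% and 14.6% with EGFP, 14.5% and 14.1% with CCNY-WT and 15.2% and 14.3% with CCNY-shRNA, so the condition with the highest Tubb3 level did not have a separate share. Tubulin genes are close copies of each other, and how shared reads were divided between them is not given, which makes the split within the family uncertain. For the same reason the tubulins cannot be counted as independent of each other or of Tubb3. In CCNY-WT, 7 of the 12 other tubulins were higher and 5 lower than in EGFP, a balance that turned to 5 and 7 with quantile normalization.

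**Figure D4:**
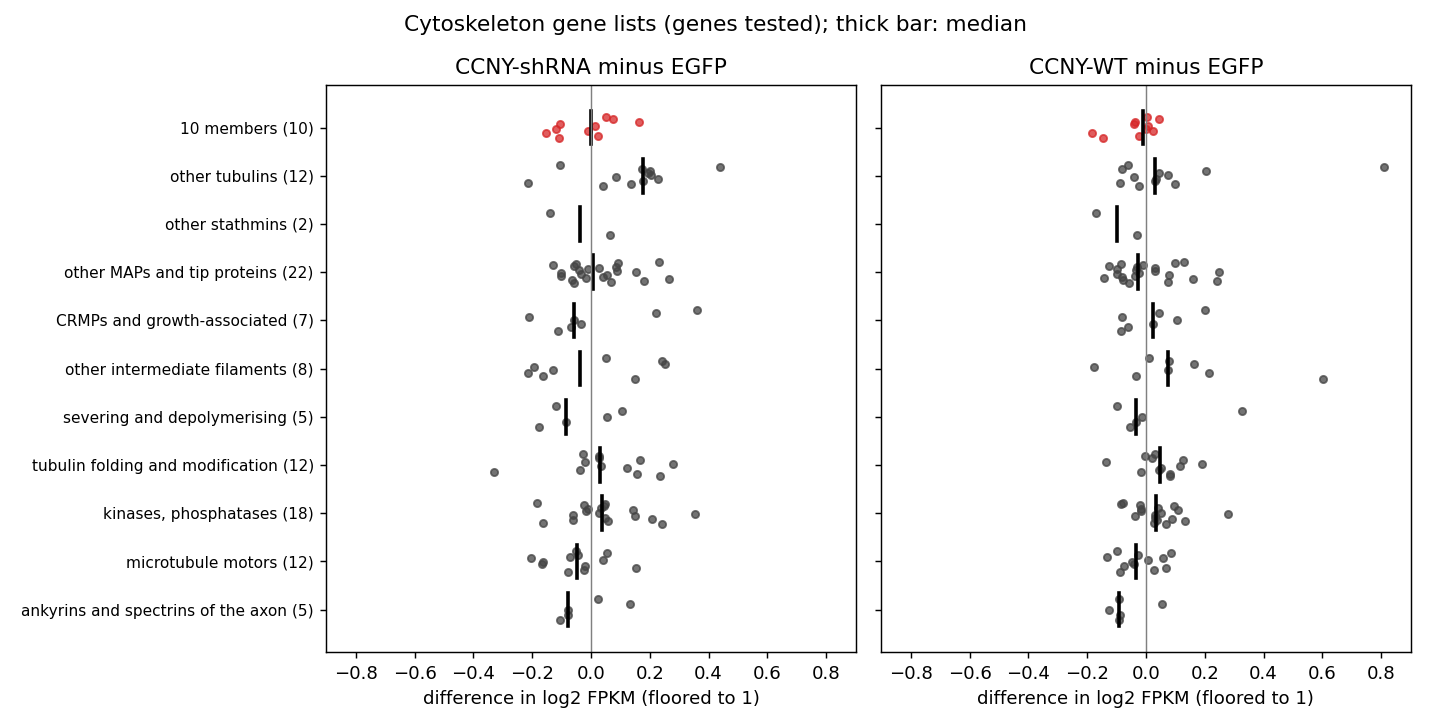
Differences in log2 FPKM (floored to 1) from EGFP in CCNY-shRNA and CCNY-WT for the 10 genes (red) and for the tested genes of 10 related lists (grey), 1 point per gene, with the number of genes in brackets and the median as a thick bar. The tubulins have the median farthest from 0 in CCNY-shRNA, at 0.18, and the medians of the other lists lie between -0.09 and 0.04.

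Among the other lists, the MAPs and plus-end proteins were balanced in CCNY-shRNA, with 11 of 22 higher and 11 lower. Their most abundant member, Dclk1, a doublecortin-like kinase bound to microtubules, had 236 and 225 with EGFP, 228 and 225 with CCNY-WT and 222 and 208 with CCNY-shRNA (log2 difference in CCNY-shRNA -0.10, limma adjusted p = 0.376). Gap43 and Basp1, membrane proteins of growth cones, were higher in both knockdown libraries than in the controls. The FPKM of Gap43 was 1013 and 952 with EGFP, 1023 and 1004 with CCNY-WT and 1073 and 1221 with CCNY-shRNA (0.22, limma adjusted p = 0.205). That of Basp1 was 695 and 677 with EGFP, 849.6 and 731 with CCNY-WT and 974 and 796 with CCNY-shRNA (0.36, limma adjusted p = 0.150), with replicate 1 above replicate 2 in every condition. The other 5 genes of that list, the collapsin response mediator proteins, were all below EGFP on average in CCNY-shRNA.

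Stmn4 was lower than EGFP (645 and 691) in CCNY-WT, with 594 in each library (log2 difference -0.17, limma adjusted p = 0.725), and in CCNY-shRNA, with 598 and 616 (-0.14, limma adjusted p = 0.287), whereas Stmn3 overlapped in all 3 comparisons. Of the 12 motor genes, 3 lay above and 9 below EGFP in CCNY-shRNA. Klc1, a light chain of kinesin-1, had 562 and 567 with EGFP, 595 and 581 with CCNY-WT and 497 and 482 with CCNY-shRNA (log2 difference in CCNY-shRNA -0.21, limma adjusted p = 0.122), and Kif5c, a heavy chain of the same motor, had 355 in each EGFP library and 326 and 308 in CCNY-shRNA (-0.16, limma adjusted p = 0.214). In the list of tubulin folding and modification, Atat1, the acetyltransferase of alpha-tubulin, had the smallest p of all related genes in CCNY-shRNA and is named for that after its value was seen. Its FPKM was 45.6 and 44.0 with EGFP, 50.3 and 51.9 with CCNY-WT and 54.0 and 54.5 with CCNY-shRNA (0.28 higher than EGFP on the log2 scale with CCNY-shRNA, standard error 0.0577, limma adjusted p = 0.0768).

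Among kinases and phosphatases that act on tau and neurofilaments, 11 of 18 lay above and 7 below EGFP in CCNY-shRNA. The most abundant were Camk2a, with 376 and 405 with EGFP, 379 and 361 with CCNY-WT and 361 and 327 with CCNY-shRNA (log2 difference in CCNY-shRNA -0.18, limma adjusted p = 0.214), and the phosphatase subunit Ppp2ca, whose libraries overlapped in every comparison. The axonal spectrins Sptan1 and Sptbn1, which form the membrane skeleton, were below EGFP in both conditions by between -0.12 and -0.08 (limma adjusted p = 0.542 or more). The intermediate filaments of glia and precursors, Gfap and Vim, overlapped between CCNY-shRNA and EGFP, with CCNY-shRNA replicate 1 the lowest library for both, at 98.3 and 58.8.

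The mean of the 10 genes, each centred on its own log2 average, moved by only -0.04 to 0.03 over the 6 libraries. It was 0.03 and 0.0047 with EGFP, 0.0022 and -0.04 with CCNY-WT and 0.02 and -0.02 with CCNY-shRNA. Both EGFP libraries thus lay above both CCNY-WT libraries, and the CCNY-shRNA libraries overlapped with each of the others. Map2 (r = 0.950) and Map1b (r = 0.911) followed this mean most closely, while Stmn1 (r = -0.664) and Stmn2 (r = -0.672) ran against it. Each gene is part of this mean, and genes that vary more weigh more in it, so a high r is in part built in. Of 6567 other genes with a mean FPKM of at least 10, those with the highest Pearson r to it over the 6 libraries were Prr7 (0.990), Tp53i11 (0.989), Celf2 (0.982), Phf10 (0.976) and Fry (0.976). The FPKM of Prr7 was 46.8 and 44.2 with EGFP, 43.4 and 40.0 with CCNY-WT and 45.0 and 41.6 with CCNY-shRNA, again with replicate 2 the lower library in each condition. These correlations describe 6 libraries that share their conditions.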

How the data were processed

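RNA-seq libraries were prepared by the authors from poly(A) RNA and sequenced in 150-bp paired-end reads, which the authors mapped to rn4 with TopHat 2 and quantified with Cufflinks. The submitters' processing notes name TopHat2 2.0, Bowtie2 2.1.0, SAMtools 0.1.19 and Cufflinks 2.2.1. For 17066 genes the table deposited by the authors holds FPKM, with 1 column per library. The annotation, the use of strand and any scaling between libraries are not given in the sources used here, so reads of overlapping or antisense genes cannot be told apart.

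FPKM were floored to 1 and log2-transformed, and differences are on that scale. The 10188 genes that reached an FPKM of 1 in 2 libraries or more were fitted over all 6 libraries with limma 3.58.1 in R 4.3.3 (lmFit, contrasts.fit, eBayes with a trend), with Benjamini-Hochberg adjustment and a threshold of 0.05. Simulated data with known differences, put into genes drawn at random, served to test the fit. In CCNY-shRNA against EGFP, 39% of simulated log2 differences of 0.5 were called in the right direction, and 92% of those of 1. Python 3.11.15 (numpy 2.4.6, pandas 2.3.3, matplotlib 3.10.9) was used for summaries and plots.

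The genes, lists and tests were chosen with earlier results of these data known. Named were the 10 genes and Ccny, per related list any gene past the threshold or else the 2 genes with the highest mean FPKM, and the 5 genes most like the mean of the 10. Further genes are said to be chosen after their values were seen. Of the related lists, 14 genes without a row (among them Tubb4a, Kif1a and Ank2) were not analysed here.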

Additional observations from a re-analysis of the deposited data

Results flagged for a closer look

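Among the 10 genes and the related genes named by rule, 2 had both CCNY-WT libraries on one side of both EGFP libraries and both CCNY-shRNA libraries on the other. For Klc1 the log2 difference of CCNY-shRNA from CCNY-WT was -0.26 (standard error 0.0560, unadjusted p = 0.00159 and adjusted p = 0.149, limma), with the FPKM given in the report. For Agtpbp1, a carboxypeptidase that shortens the glutamate chains of tubulin, it was -0.0846 (limma adjusted p = 0.582), with 93.4 and 94.2 FPKM under EGFP, 94.8 and 98.8 under CCNY-WT and 93.0 and 89.6 under CCNY-shRNA. Neither difference passed the adjusted threshold, and the 2 comparisons share the EGFP libraries. None of the 10 genes showed this pattern. Among the related genes not named by rule, Nes, Dpysl4, Mark2 and Fyn showed it too. Its share over all genes tested was not computed, so whether the pattern is unusual is not known.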

How the results depend on the processing

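The alternatives were log2(FPKM + 1) in place of the floor, no filter on low values, upper-quartile scaling, quantile normalization, no trend, only the 4 libraries compared, a replicate block, and each library left out in turn. Under all of them 0 of the 10 genes and 0 of the related genes passed the adjusted threshold, and under those that bear on it 0 of the 10 genes passed the study's threshold. The smallest adjusted p of any of the 10 genes was 0.150, for Tubb3 in CCNY-shRNA with upper-quartile scaling. The log2 difference of Tubb3 in CCNY-shRNA from EGFP stayed between 0.12 (quantile normalization) and 0.18, and was 0.16 to 0.17 with each library left out. With each library left out, that of Map1b was -0.27 to -0.09 in CCNY-WT and -0.21 to -0.09 in CCNY-shRNA, and that of Map2 -0.22 to -0.08 and -0.20 to -0.02. Of all genes, the 76 called in CCNY-shRNA became 2 with no filter, 1 with no trend, 25 with only the 4 libraries compared and 1 to 86 with a library left out (1 without either EGFP replicate).

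Of 390 recomputed differences of the 10 genes, 26 changed sign. The one farthest from 0 was -0.0951, for Nefh in CCNY-shRNA against CCNY-WT without CCNY-shRNA replicate 1. With quantile normalization these were Nefl (-0.0518), Nefm (-0.0355), Nefh (-0.00225) and Stmn2 (-0.0224) in CCNY-WT against EGFP, Stmn2 in CCNY-shRNA against EGFP (-0.0394) and Stmn2 in CCNY-shRNA against CCNY-WT (-0.0170), and with upper-quartile scaling Nefl in CCNY-shRNA against EGFP (0.00959). With 1 library left out, the differences that changed sign ranged, in CCNY-shRNA against EGFP, from -0.0130 to 0.0575 for Mapt, -0.0385 to 0.0202 for Nefl and -0.0867 to 0.111 for Nefh. In CCNY-WT against EGFP the ranges were -0.0237 to 0.0274 for Nefm, -0.0836 to 0.10 for Nefh and -0.0320 to 0.0418 for Stmn2. In CCNY-shRNA against CCNY-WT they were -0.0506 to 0.129 for Map2, -0.0615 to 0.123 for Map1b, -0.0951 to 0.103 for Nefh and -0.0222 to 0.0835 for Stmn1. The cause was not tested.

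The labels link replicates across conditions by number alone. Over 6577 genes, the differences between replicates 1 and 2 correlated between conditions at -0.03 to 0.12, which cannot exclude a shared culture or batch. The replicate block gave 0 calls among the 10 genes (smallest adjusted p = 0.220 for CCNY-shRNA against EGFP by limma) and 39 among all genes there. With the block, 2 of the 10 genes had an unadjusted p under 0.05 (limma) in each comparison with EGFP. The share of all genes was 18.6% for CCNY-shRNA and 6.84% for CCNY-WT.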
